A study of Homo sapiens with 6 samples.

Results

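The SLC25 carriers are the nuclear-encoded proteins that move metabolites, nucleotides and ions across the inner mitochondrial membrane. They were taken as the rows of the count table named SLC25A followed by a number. Of 19937 gene rows, 48 matched. One of these was left out by the rule of choice, which left 47 carriers on 19 chromosomes. RNA was sequenced from 6 libraries of SK-N-BE(2), an established MYCN-amplified human neuroblastoma cell line. By title, 3 libraries were sgGPR91, with GPR91 as the target of a guide RNA, and 3 were sgcon. GPR91 is the succinate receptor encoded by SUCNR1. Drug treatment was common to all 6 libraries, given as doxorubicin at 100 nmol/L for 48 h in the treatment tag and as DOX at 1.5 µg/ml for 48 h in the growth protocol, so no untreated cells enter any comparison. The genotype tags run against the titles, with the sgcon libraries tagged as knockout. Every direction is that of the libraries labelled sgGPR91 against those labelled sgcon, and each would turn round if the tags were right. Whether the replicates were separate cultures, and how many clones were used, is not given in the labels. The p-values therefore reflect only the variation among these 6 libraries, part or all of which may be technical.

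Each carrier is a small protein of the inner membrane built from repeated pairs of membrane-spanning helices. It typically exchanges a substrate inside the matrix for one outside. Members carry ADP and ATP, phosphate, citrate and other acids of the tricarboxylic acid cycle, amino acids, acylcarnitines, iron, and cofactors such as NAD+ and coenzyme A. A few members sit elsewhere, in peroxisomes (SLC25A17) or in the outer mitochondrial membrane (SLC25A46). The carriers depend on import from the cytosol through the outer-membrane receptor TOMM70, the small TIM chaperones and the TIM22 insertase.

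Total counts were 8198952 to 8876172 in the sgGPR91 libraries and 7070189 to 10252425 in the sgcon libraries. A floor of 3 reads was 0.293 to 0.424 CPM (counts scaled to the library total, for gene values also adjusted by TMM) and covers counting error only. SUCNR1 could not check the labels, with 1, 0 and 0 reads in the sgGPR91 libraries and 1, 0 and 2 reads in the sgcon libraries. Genes of the mitochondrial genome took 3.36% to 3.91% of counts in the sgGPR91 libraries and 2.15% to 2.45% in the sgcon libraries. All 10 listed markers of adrenergic neuroblastoma were expressed, with a summed level of 1468 to 1563 FPKM in the sgGPR91 libraries and 2113 to 2286 FPKM in the sgcon libraries, and 9 of the 10 were lower by edgeR's test at an adjusted p under 0.05, beside 21% of all genes tested. Of 14 markers of other cell types, 4 passed the count filter, and CD3E, CD68 and KRT5 had 0 reads. The 4 were the epithelial marker EPCAM and the fibroblast markers COL1A1, DCN and PDGFRA. COL1A1 and DCN had means of 9.21 and 6.34 FPKM over the 6 libraries. Of the 4, 1 was called higher and 2 lower (75% called, beside 41.1% of all genes tested). The sum of the 14 was 17.9 to 19.03 FPKM in the sgGPR91 libraries and 21.7 to 25.5 FPKM in the sgcon libraries. The part of these differences in the results on carriers was not tested. In bulk RNA, fewer cells that express a gene and less of its RNA per cell cannot be told apart.

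The summed level of the family overlapped between the groups, while single members differed in both directions. The summed level of the 47 carriers was 711, 673 and 688 FPKM in the sgGPR91 libraries (691 ± 19.01, SD, n = 3) and 739, 735 and 679 FPKM in the sgcon libraries (718 ± 34.0, SD, n = 3). FPKM, reads scaled to gene length and to the column total, is the deposited per-length scale on which levels of different genes are compared here. The lowest sgcon library lay below the 2 higher sgGPR91 libraries. The carriers took 0.254% to 0.261% of all counts in the sgGPR91 libraries and 0.255% to 0.268% in the sgcon libraries. The 39 carriers that passed the count filter had a median level of 8.28 FPKM, against 6.56 FPKM over the 12701 genes tested.

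A few carriers held most of the family's FPKM, a scale that depends on the listed length of each gene. SLC25A6, an ADP/ATP carrier encoded in the pseudoautosomal region of the X chromosome, had the highest level at 208 ± 13.8 FPKM in the sgGPR91 libraries and 244 ± 24.6 FPKM in the sgcon libraries (SD, n = 3 each). SLC25A5, the second ADP/ATP carrier, followed at 104 ± 2.71 FPKM in the sgGPR91 libraries and 92.1 ± 6.19 FPKM in the sgcon libraries. SLC25A3, the phosphate carrier, had 45.2 ± 1.62 FPKM in the sgGPR91 libraries and 49.4 ± 3.07 FPKM in the sgcon libraries. Its listed length was 8896 bases, against 1553 bases for SLC25A6, which lowers its FPKM. By CPM, which is not scaled to length, SLC25A3 was the highest carrier. It had 402 CPM in the sgGPR91 libraries and 442 CPM in the sgcon libraries, against 323 and 381 CPM for SLC25A6. SLC25A39, required for glutathione import, had 39.7 ± 2.64 FPKM in the sgGPR91 libraries and 46.0 ± 1.23 FPKM in the sgcon libraries. SLC25A36, a pyrimidine nucleotide carrier, was the fifth by the mean of all 6 libraries. It had 22.4 ± 1.24 FPKM in the sgGPR91 libraries and 26.0 ± 1.75 FPKM in the sgcon libraries. The ADP/ATP carriers together made up 46.5% of the family's FPKM in the sgGPR91 libraries and 48.2% in the sgcon libraries. The next neighbours in the order, SLC25A1 and SLC25A24, had mean levels of 23.0 and 22.8 FPKM over the 6 libraries and did not differ from each other beyond the spread. The order of the means changed between the groups. In the sgGPR91 libraries both were above SLC25A36, at 23.9 ± 1.43 FPKM for SLC25A1 and 25.3 ± 1.21 FPKM for SLC25A24. In the sgcon libraries both were below it, at 22.0 ± 3.04 and 20.3 ± 0.999 FPKM. The FPKM of SLC25A1 overlapped that of SLC25A36 in both groups, while that of SLC25A24 overlapped it in neither.

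**Figure D1:**
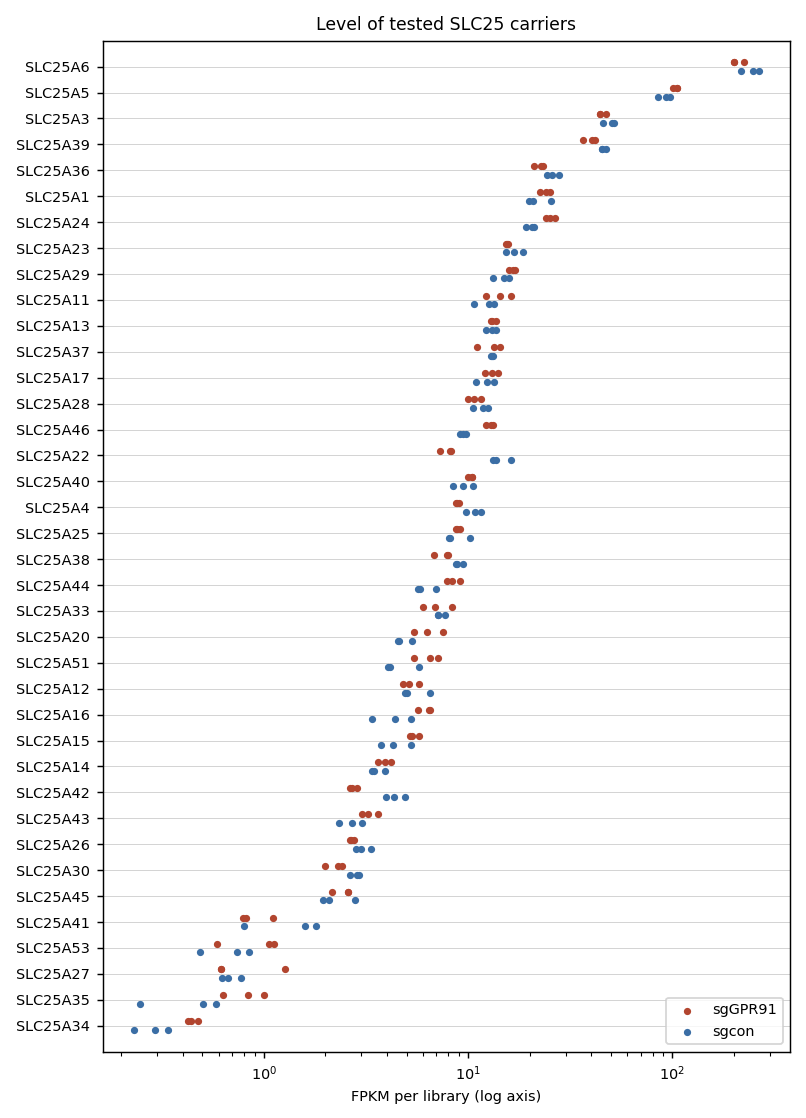
FPKM of 38 tested carriers, 1 point per library on a log axis, with the 3 sgGPR91 libraries drawn above the 3 sgcon libraries in each row and carriers ordered by mean level. SLC25A6 stands at the top with 208 FPKM on average in the sgGPR91 libraries and 244 FPKM in the sgcon libraries.

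Of the 39 tested carriers, 11 passed edgeR's quasi-likelihood test at an adjusted p under 0.05. SLC25A16, SLC25A51, SLC25A44, SLC25A46 and SLC25A24 were higher in the sgGPR91 libraries, and SLC25A22, SLC25A42, SLC25A4, SLC25A6, SLC25A36 and SLC25A39 were lower. This is 28.2% of the tested carriers, beside 41.1% of all genes tested, made up of 20.2% higher and 21% lower. None of the 39 tested carriers reached 2-fold, beside 7.0% of all tested genes that were called and at least 2-fold. The median log2 fold change was 0.08 over the carriers and -0.01 over all genes tested, and the median size of the change was 0.23 over the carriers and 0.25 over all genes. For 17 carriers (43.6%) the 3 libraries of each group did not overlap, beside 50.9% of all genes. The number of carriers called lower varied with the library left out. It was 3 without sgcon replicate 1, 3 without sgcon replicate 2 and 8 without sgcon replicate 3. It was 4 without sgGPR91 replicate 1, 2 without sgGPR91 replicate 2 and 3 without sgGPR91 replicate 3. The number of all genes called, in either direction, varied too and was 5221 with all 6 libraries. In the order above it was 5010, 4275, 5707, 4252, 4377 and 4108.

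**Figure D2:**
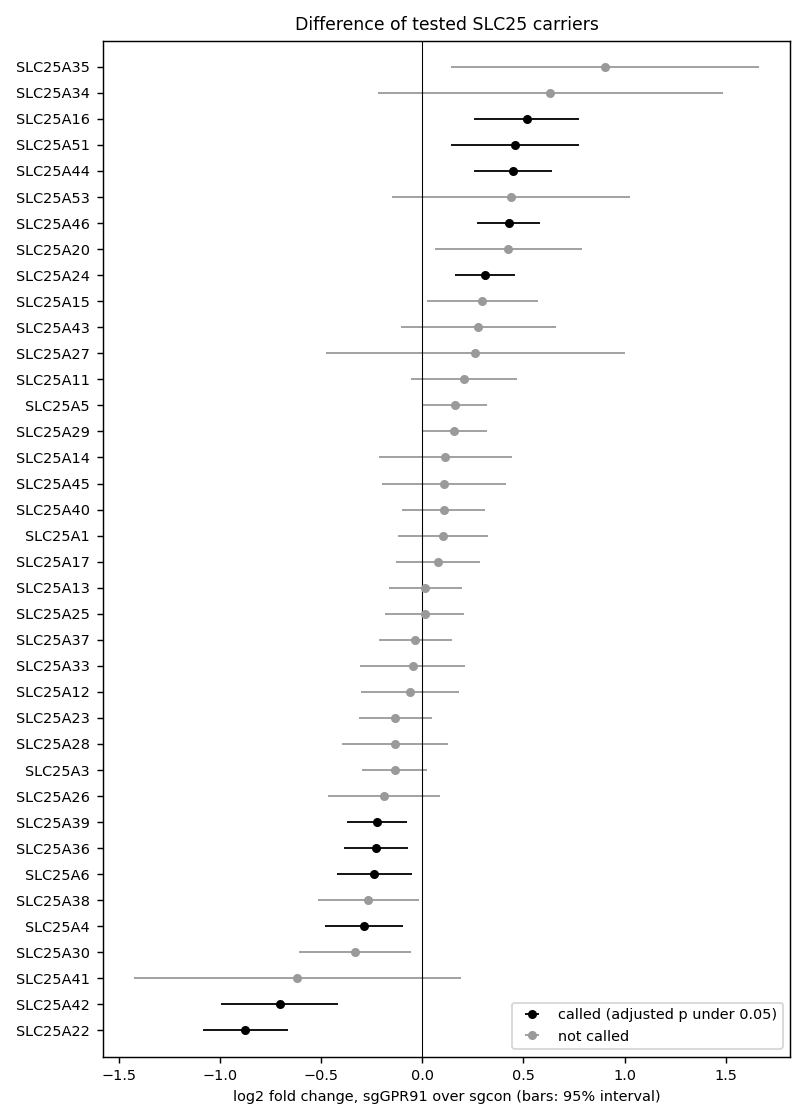
Log2 fold change of 38 tested carriers, sgGPR91 over sgcon, with the 95% interval from edgeR's fit, ordered by size. The 11 called carriers, in black, run from 0.52 for SLC25A16 to -0.87 for SLC25A22, and wide intervals belong to carriers with few reads such as SLC25A35 and SLC25A34.

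The promoters of the carriers were searched for short motifs in the 250 bases before each start, for the 33 tested carriers with an entry in RefSeq's table (GRCh38.p14), on both strands. CCAAT was present in 17 of them (51.5%), beside 35.1% of 10264 promoters of tested genes. Among the 10 called carriers with an entry, 5 held it. Of these 5, SLC25A4, SLC25A6, SLC25A36 and SLC25A42 were lower and SLC25A44 was higher. The stretches are shown for these because CCAAT was the motif held by the most called carriers in 1 direction apart from GGGCGG. That motif was present in 25 carriers (75.8%) and 67.6% of all promoters, and in 4 called carriers that were lower and 2 that were higher. The share of lower genes among all promoters with CCAAT was not computed. Only bases before the first exon that GENCODE 29 places in the window are given, which leaves out SLC25A6. They run 5′ to 3′ on the strand of the gene, and capitals mark CCAAT or its reverse complement ATTGG. The positions are chr4:185143016-185143240 (plus strand) for SLC25A4, chr3:140941586-140941829 (plus strand) for SLC25A36, chr19:19063744-19063993 (plus strand) for SLC25A42 and chr1:156193854-156193931 (plus strand) for SLC25A44.
SLC25A4: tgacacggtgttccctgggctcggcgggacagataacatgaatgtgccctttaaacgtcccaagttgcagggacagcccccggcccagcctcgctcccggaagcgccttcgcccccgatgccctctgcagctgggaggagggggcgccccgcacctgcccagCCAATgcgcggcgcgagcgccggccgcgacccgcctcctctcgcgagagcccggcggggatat
SLC25A36: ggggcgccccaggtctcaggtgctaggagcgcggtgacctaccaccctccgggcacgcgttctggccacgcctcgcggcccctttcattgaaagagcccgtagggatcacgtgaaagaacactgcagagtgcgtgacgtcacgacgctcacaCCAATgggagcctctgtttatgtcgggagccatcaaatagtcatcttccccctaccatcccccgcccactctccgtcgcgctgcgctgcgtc
SLC25A42: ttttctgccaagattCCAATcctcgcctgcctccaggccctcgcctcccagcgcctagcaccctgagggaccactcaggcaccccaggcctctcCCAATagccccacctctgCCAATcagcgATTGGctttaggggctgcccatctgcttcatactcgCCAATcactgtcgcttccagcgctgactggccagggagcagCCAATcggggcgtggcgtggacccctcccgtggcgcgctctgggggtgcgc
SLC25A44: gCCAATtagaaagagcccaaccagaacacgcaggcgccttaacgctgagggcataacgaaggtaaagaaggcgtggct
SLC25A42 has 6 matches, which start 235, 156, 138, 128, 92 and 51 bases before its start, while SLC25A4 and SLC25A36 have 1 each, at 88 and 98 bases. SLC25A44 has a second match, ATTGG at 80 bases before the start used for the search, outside the bases given. The last base given for SLC25A44 lies 173 bases before that start. The second match therefore lies inside the gene as GENCODE 29 places it. The E-box CACGTG was present in 6 carrier promoters (18.2%), beside 8.99% of all, and CCGGAAG, the core bound by ETS factors, in 7 (21.2%), beside 15.8% of all. The motif of NRF1 was present in 2 (6.06%), beside 10.5%, and TGATGNAA, a composite of C/EBP and ATF sites, in 1 (3.03%), beside 1.37%. No motif searched contains another. A match is a description of the letters, not of a bound site.

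Among carriers of amino acids, 1 of 7 tested members rose, 1 fell and 5 did not pass the test. Over all genes tested, 20.2% were higher and 21% lower. SLC25A22 (ENSG00000177542, chr11:790475-798281, minus strand in the deposited table) carries glutamate into the matrix together with a proton. It had 33.6, 37.6 and 37.4 CPM in replicates 1, 2 and 3 of the sgGPR91 libraries, against 63.8, 75.3 and 59.4 CPM in the sgcon libraries. Every sgGPR91 library was below every sgcon library by a wide gap. The means were 36.2 ± 2.27 CPM in the sgGPR91 libraries and 66.1 ± 8.22 CPM in the sgcon libraries (SD, n = 3 each), with a log2 fold change of -0.87 ± 0.10 (SE), 1.83-fold lower, and an edgeR adjusted p of 3.82e-06. Of its exonic bases in GENCODE 29, 10.8% also belong to PANO1 on the opposite strand, and reads of overlapping genes cannot be told apart since no source used here says whether counting used strand.

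SLC25A44 (ENSG00000160785, chr1:156193932-156212796, plus strand), the carrier of branched-chain amino acids, was the member that rose. Its values were 58.0, 60.1 and 66.3 CPM in the sgGPR91 libraries, against 43.3, 42.2 and 49.9 CPM in the sgcon libraries. All 3 sgGPR91 libraries were above the highest sgcon library, and the log2 fold change was 0.45 ± 0.09 (1.37-fold, edgeR adjusted p = 0.000889).

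The other 5 tested amino acid carriers did not pass the test. The aspartate-glutamate carriers SLC25A12 and SLC25A13, which serve the malate-aspartate shuttle, had log2 fold changes of -0.06 (95% interval -0.30 to 0.18) and 0.02 (95% interval -0.16 to 0.19). SLC25A29, a carrier of basic amino acids, had 123 ± 4.59 CPM in the sgGPR91 libraries and 109.9 ± 9.38 CPM in the sgcon libraries (edgeR adjusted p = 0.109). SLC25A15, the ornithine carrier of the urea cycle, had 22.5, 23.96 and 21.7 CPM in the sgGPR91 libraries, against 15.9, 18.2 and 21.6 CPM in the sgcon libraries. Its groups did not overlap, and the adjusted p was 0.0789. Without sgcon replicate 3, its highest sgcon library, SLC25A15 passed at an edgeR adjusted p of 0.0152. SLC25A38, the glycine carrier that serves haem synthesis, had 21.5, 20.8 and 17.9 CPM in the sgGPR91 libraries, against 25.5, 23.9 and 22.9 CPM in the sgcon libraries. These did not overlap either, at an edgeR adjusted p of 0.0817 and a limma adjusted p of 0.0431 on log2(FPKM + 1).

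Among the 8 tested carriers of cofactors and nucleotides, 2 rose and 2 fell, beside 20.2% higher and 21% lower over all genes tested. SLC25A42 (ENSG00000181035, chr19:19063994-19113030, plus strand), which carries coenzyme A, fell. It had 12.4, 12.5 and 13.3 CPM in the sgGPR91 libraries, against 20.5, 23.2 and 18.2 CPM in the sgcon libraries. The sgGPR91 libraries lay close together and below all sgcon libraries, with means of 12.7 ± 0.530 CPM in the sgGPR91 libraries and 20.6 ± 2.54 CPM in the sgcon libraries. The log2 fold change was -0.70 ± 0.14, 1.63-fold lower (edgeR adjusted p = 0.000639).

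SLC25A16 (ENSG00000122912, chr10:68477998-68527523, minus strand), a carrier tied to coenzyme A through its relative Leu5 in yeast, went the other way. It had 44.8, 50.1 and 51.0 CPM in the sgGPR91 libraries, against 27.0, 35.0 and 40.5 CPM in the sgcon libraries. The sgcon libraries were spread, and the highest of them was still below the lowest sgGPR91 library. Its log2 fold change of 0.52 ± 0.12 (1.43-fold, edgeR adjusted p = 0.00283) was the largest rise among the called carriers.

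SLC25A51 (ENSG00000122696, chr9:37879400-37904353, minus strand) imports NAD+ into mitochondria. It had 22.4, 18.4 and 23.95 CPM in the sgGPR91 libraries, against 14.0, 14.3 and 19.1 CPM in the sgcon libraries. The groups overlapped by 1 library, sgcon replicate 3, which was above sgGPR91 replicate 2. The log2 fold change was 0.46 ± 0.15 (1.38-fold, edgeR adjusted p = 0.0212), and the adjusted p was 0.0657 without sgcon replicate 1, 0.0959 without sgcon replicate 2, 0.0724 without sgGPR91 replicate 1 and 0.108 without sgGPR91 replicate 3.

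SLC25A36 (ENSG00000114120, chr3:140941830-140980995, plus strand) had 218, 234 and 239.6 CPM in the sgGPR91 libraries, against 293, 269.9 and 247 CPM in the sgcon libraries. The groups did not overlap, and the gap between the highest sgGPR91 library and the lowest sgcon library was small. The log2 fold change was -0.23 ± 0.08, 1.17-fold lower (edgeR adjusted p = 0.0227). The adjusted p was 0.0787 without sgcon replicate 1, 0.0644 without sgcon replicate 2, 0.106 without sgGPR91 replicate 1, 0.0634 without sgGPR91 replicate 2 and 0.0502 without sgGPR91 replicate 3. Its relative SLC25A33, also a pyrimidine nucleotide carrier, had 27.3 ± 4.79 CPM in the sgGPR91 libraries and 28.3 ± 0.754 CPM in the sgcon libraries (log2 fold change -0.05, adjusted p = 0.790).

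No other tested member of this group passed. SLC25A17, which carries coenzyme A and related nucleotides in peroxisomes, had a log2 fold change of 0.08 (95% interval -0.13 to 0.29). SLC25A26, which imports the methyl donor S-adenosylmethionine, had -0.19 (95% interval -0.46 to 0.09), and its libraries did not overlap, with the sgGPR91 libraries lower.

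Of the 3 tested ADP/ATP carriers, which exchange matrix ATP for cytosolic ADP, 2 fell and 1 did not pass. Over all genes tested, 21% were lower. SLC25A6 (ENSG00000169100, chrX:1386152-1392113, minus strand) had 351, 308 and 311 CPM in the sgGPR91 libraries, against 420.4, 391 and 331 CPM in the sgcon libraries. The highest sgGPR91 library was above the lowest sgcon library, so the groups overlapped. The log2 fold change was -0.24 ± 0.09, 1.18-fold lower (edgeR adjusted p = 0.0396). It did not pass without sgcon replicate 1 (0.140), sgcon replicate 2 (0.125), sgGPR91 replicate 2 (0.161) or sgGPR91 replicate 3 (0.157), nor with upper-quartile scaling (0.0513) or limma on log2(FPKM + 1) (0.0712).

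SLC25A4 (ENSG00000151729, chr4:185143266-185150382, plus strand), the ADP/ATP carrier best known from heart and skeletal muscle, had 42.5, 42.0 and 43.1 CPM in the sgGPR91 libraries, against 56.5, 52.7 and 46.2 CPM in the sgcon libraries. The sgGPR91 libraries were nearly equal and below all sgcon libraries. The log2 fold change was -0.29 ± 0.09, 1.22-fold lower (edgeR adjusted p = 0.0185), and the call was lost whichever library was left out except sgcon replicate 3, with adjusted p of 0.0675 without sgcon replicate 1, 0.0617 without sgcon replicate 2, 0.0526 without sgGPR91 replicate 1, 0.0638 without sgGPR91 replicate 2 and 0.0538 without sgGPR91 replicate 3. The 27 tested genes that start within 5 Mb of SLC25A4 had a median log2 fold change of -0.49, and 14 of them were lower and 2 higher. The part of this stretch of chromosome 4 in the value of SLC25A4 was not tested.

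SLC25A5, the ADP/ATP carrier typical of proliferating cells, had 165, 156 and 163 CPM in the sgGPR91 libraries, against 148, 154 and 130.3 CPM in the sgcon libraries. The sgGPR91 libraries were all higher, by little, with a log2 fold change of 0.16 (95% interval 0.01 to 0.32) and an edgeR adjusted p of 0.0900. GENCODE 29 holds 9 pseudogenes named for SLC25A5 and 6 named for SLC25A6, so reads of these carriers may be split with copies. Of the exonic bases of SLC25A5, 15.1% are shared with SLC25A5-AS1. As a share of the FPKM of the 3 carriers, SLC25A5 held 31.2%, 32.6% and 33.4% in the sgGPR91 libraries, against 25.2%, 27.4% and 27.3% in the sgcon libraries. SLC25A6 held 66.3%, 64.6% and 63.7% in the sgGPR91 libraries, against 71.7%, 69.6% and 69.5% in the sgcon libraries. In both shares the 3 sgGPR91 libraries lay apart from the 3 sgcon libraries, and SLC25A5 was 5.76 percentage points higher on average while SLC25A6 was 5.43 points lower. The two-sided exact permutation test gave p = 0.1 for each, the smallest that 3 against 3 libraries allow, and 0.2 after Benjamini-Hochberg adjustment over the 18 shares compared.

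The phosphate carrier was grouped with the ATP-Mg/phosphate carriers, which adjust the adenine nucleotide content of the matrix, most of them under control of calcium. Of the 5 tested members, 1 rose, beside 20.2% of all genes tested. SLC25A24 (ENSG00000085491, chr1:108134043-108200849, minus strand) had 179, 161 and 169 CPM in the sgGPR91 libraries, against 144, 131 and 135 CPM in the sgcon libraries. Each sgGPR91 library was above each sgcon library, and the log2 fold change was 0.31 ± 0.07 (1.24-fold, edgeR adjusted p = 0.00213). Of its exonic bases, 13.7% are shared with the antisense gene AL359258.2. SLC25A23 had 75.5 ± 1.01 CPM in the sgGPR91 libraries and 82.5 ± 9.21 CPM in the sgcon libraries (log2 fold change -0.13, adjusted p = 0.224). SLC25A25 had 52.6 ± 1.598 CPM in the sgGPR91 libraries and 52.4 ± 6.09 CPM in the sgcon libraries, nearly the same. SLC25A41, at 1.49 ± 0.282 CPM in the sgGPR91 libraries and 2.31 ± 0.846 CPM in the sgcon libraries, was too low for a narrow estimate (95% interval -1.43 to 0.19).

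Within these 4 carriers SLC25A24 held 51.0%, 48.5% and 50.3% of the FPKM in the sgGPR91 libraries, against 45.1%, 40.5% and 42.9% in the sgcon libraries. SLC25A23 held 30.7% ± 0.911 in the sgGPR91 libraries and 35.6% ± 3.57 in the sgcon libraries (SD, n = 3 each). Neither share overlapped between the groups (exact permutation p = 0.1, adjusted 0.2, for each). SLC25A3, the phosphate carrier needed for ATP synthesis, had 402 ± 17.7 CPM in the sgGPR91 libraries and 442 ± 35.9 CPM in the sgcon libraries, with an edgeR adjusted p of 0.161. Without sgcon replicate 3, SLC25A3 passed at a log2 fold change of -0.20 (edgeR adjusted p = 0.0102) and SLC25A23 at -0.21 (0.0328).

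Of the pair of glutathione carriers, SLC25A39 fell, and 21% of all genes tested were lower. SLC25A39 (ENSG00000013306, chr17:44319625-44324870, minus strand) had 144, 128 and 146 CPM in the sgGPR91 libraries, against 163, 161 and 164 CPM in the sgcon libraries. The sgcon libraries were almost equal and above all sgGPR91 libraries. The log2 fold change was -0.22 ± 0.07, 1.17-fold lower (edgeR adjusted p = 0.0179), and 0.123 without sgGPR91 replicate 2, its lowest library. Its close relative SLC25A40 had 52.3 ± 0.754 CPM in the sgGPR91 libraries and 48.4 ± 6.51 CPM in the sgcon libraries (adjusted p = 0.406). The share of SLC25A39 in the pair's FPKM was 79.3% ± 1.26 in the sgGPR91 libraries and 82.9% ± 1.95 in the sgcon libraries, without overlap (exact permutation p = 0.1, adjusted 0.2).

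SLC25A46 (ENSG00000164209, chr5:110738136-110765161, plus strand), which sits in the outer membrane and shapes the mitochondrial network, rose. It had 107, 100.1 and 109 CPM in the sgGPR91 libraries, against 79.2, 81.8 and 74.1 CPM in the sgcon libraries. No libraries overlapped, and the log2 fold change was 0.43 ± 0.07 (1.345-fold, edgeR adjusted p = 0.000219). The other 5 tested members of no settled role did not pass, and 20.2% of all genes tested were higher. SLC25A35 had 3.97, 3.27 and 2.48 CPM in the sgGPR91 libraries, against 2.35, 0.989 and 1.94 CPM in the sgcon libraries, few reads but no overlap (log2 fold change 0.90, 95% interval 0.14 to 1.67, adjusted p = 0.0551). Its edgeR adjusted p was 0.0285 without sgcon replicate 1, and 33.2% of its exonic bases are shared with RANGRF, which had 3 reads over all libraries. SLC25A34 (0.63, adjusted p = 0.223), SLC25A43 (0.28, 0.238), SLC25A45 (0.11, 0.580) and SLC25A53 (0.44, 0.223) all had positive log2 fold changes that missed the threshold.

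No tested carrier of citrate, oxoacids, acylcarnitines or iron and no uncoupling protein-like carrier passed edgeR's test, and DESeq2 called none either. Tested were 2 carriers of citrate and oxoacids, 1 of acylcarnitines, 2 of iron and 3 uncoupling protein-like carriers. Over all genes tested, edgeR called 41.1%. At an unadjusted p under 0.05 edgeR held 1 acylcarnitine carrier, SLC25A20, and 1 uncoupling protein-like carrier, SLC25A30. SLC25A1, which exports citrate for lipid synthesis, had 47.7 ± 2.54 CPM in the sgGPR91 libraries and 44.2 ± 6.64 CPM in the sgcon libraries, and the 95% interval of its log2 fold change was -0.12 to 0.32. SLC25A11, the oxoglutarate-malate carrier, had 35.3 ± 5.20 CPM in the sgGPR91 libraries and 30.4 ± 4.01 CPM in the sgcon libraries (adjusted p = 0.198). SLC25A20, which brings acylcarnitines in for fatty acid oxidation, had 14.4, 10.3 and 11.9 CPM in the sgGPR91 libraries, against 8.84, 8.71 and 9.85 CPM in the sgcon libraries. All 3 of its sgGPR91 libraries were higher, with a log2 fold change of 0.43 (95% interval 0.06 to 0.79) and an edgeR adjusted p of 0.0565. It passed without sgcon replicate 3 (0.0417), without sgGPR91 replicate 2 (0.0355) and with limma on log2(FPKM + 1) (0.0290).

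The iron carriers, mitoferrin-1 (SLC25A37) and mitoferrin-2 (SLC25A28), did not pass the test. SLC25A37 had 88.8, 113 and 107 CPM in the sgGPR91 libraries, against 106, 107 and 103 CPM in the sgcon libraries, overlapping fully. SLC25A28 had 19.6 ± 1.34 CPM in the sgGPR91 libraries and 21.4 ± 2.19 CPM in the sgcon libraries (adjusted p = 0.411). Among the uncoupling protein-like carriers, SLC25A30 had 16.5, 13.4 and 15.6 CPM in the sgGPR91 libraries, against 19.8, 18.2 and 19.4 CPM in the sgcon libraries, without overlap (log2 fold change -0.33, edgeR adjusted p = 0.0522). SLC25A14 had 11.7 ± 0.819 CPM in the sgGPR91 libraries and 10.8 ± 0.977 CPM in the sgcon libraries, and SLC25A27 had 2.04, 4.11 and 2.01 CPM in the sgGPR91 libraries, against 2.24, 2.08 and 2.497 CPM in the sgcon libraries. Within these 3 genes the share of SLC25A14 was 56.0% ± 0.579 in the sgGPR91 libraries and 50.6% ± 2.01 in the sgcon libraries, and that of SLC25A30 was 32.2% ± 4.67 in the sgGPR91 libraries and 39.6% ± 1.10 in the sgcon libraries, both without overlap (exact permutation p = 0.1, adjusted 0.2). The shares within the aspartate-glutamate, mitoferrin and pyrimidine nucleotide pairs overlapped between the groups. Of the 28 tested carriers that were not called, 18 had a 95% interval within 0.5 of 0 on the log2 scale.

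The 8 carriers below the count filter include tissue-restricted members. SLC25A21, the oxodicarboxylate carrier, and SLC25A31, an ADP/ATP carrier of the testis, had 0 reads in all 6 libraries. SLC25A18, the second glutamate carrier, had 8, 6 and 7 reads in the sgGPR91 libraries, against 11, 8 and 10 reads in the sgcon libraries. SLC25A32, linked to folate and FAD transport, had 10, 4 and 3 reads in the sgGPR91 libraries, against 12, 6 and 4 reads in the sgcon libraries, and 80.8% of its exonic bases are shared with other annotated genes. SLC25A47, best known from liver, had 0 reads in each sgGPR91 library, against 2, 5 and 3 reads in the sgcon libraries. SLC25A2, an ornithine carrier, had 2, 0 and 1 reads in the sgGPR91 libraries, against 0, 1 and 1 reads in the sgcon libraries. SLC25A48 had 0 reads in the sgGPR91 libraries, against 0, 3 and 0 reads in the sgcon libraries, and SLC25A52, a relative of SLC25A51, had 1 read in sgGPR91 replicate 3 and none elsewhere.

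The tested genes that start within 5 Mb were set beside each carrier. Around the called carriers other than SLC25A4 their median log2 fold change ran from -0.08 to 0.13. The median around SLC25A22 was 0.01 over 67 genes and around SLC25A42 -0.08 over 135 genes. Around SLC25A5, which was not called and had a log2 fold change of 0.16, the median was 0.185 over 29 genes, with 11 higher and 2 lower. The part of this stretch of the X chromosome in the value and share of SLC25A5 was not tested. Around SLC25A23, not called at -0.13, the median was -0.14 over 198 genes, with 59 lower and 13 higher. Around the called carrier SLC25A39 the median was -0.08 over 144 genes, with 48 lower and 24 higher. The part of these stretches in the values of SLC25A23 and SLC25A39 was not tested either.

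Among the carrier-family genes that bear other names, 2 of 4 tested rose and none fell, so 50% were called, beside 41.1% of all genes tested. MTCH2, an outer-membrane relative that inserts proteins there, had 126 ± 10.9 CPM in the sgGPR91 libraries and 94.8 ± 5.16 CPM in the sgcon libraries (log2 fold change 0.41 ± 0.08, edgeR adjusted p = 0.000588). MTCH1 had 215 ± 0.845 CPM in the sgGPR91 libraries and 185 ± 10.8 CPM in the sgcon libraries (adjusted p = 0.0185), and 0.0567 without sgcon replicate 2, 0.0524 without sgGPR91 replicate 1, 0.0524 without sgGPR91 replicate 2 and 0.0751 without sgGPR91 replicate 3. The uncoupling proteins UCP2 and UCP3 did not pass.

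In the machinery that imports the carriers, 2 of 10 tested genes rose and 1 fell. This is 30% called, below the 41.1% over all genes tested. TIMM9, one of the small chaperones that guide carriers across the space between the membranes, had 18.8, 22.5 and 21.7 CPM in the sgGPR91 libraries, against 38.3, 35.2 and 32.5 CPM in the sgcon libraries. All sgGPR91 libraries were lower, with a log2 fold change of -0.75 ± 0.11 (edgeR adjusted p = 5.24e-05). TIMM8A, another small chaperone, had 15.4 ± 2.10 CPM in the sgGPR91 libraries and 9.74 ± 0.478 CPM in the sgcon libraries (log2 fold change 0.66 ± 0.15, adjusted p = 0.00266). TIMM22, the channel of the insertase, had 11.6 ± 0.867 CPM in the sgGPR91 libraries and 7.77 ± 0.833 CPM in the sgcon libraries (log2 fold change 0.57 ± 0.17, adjusted p = 0.0123), and 0.0517 without sgcon replicate 2 and 0.0524 without sgGPR91 replicate 1. TIMM10, the partner of TIMM9, was at 0.09 (adjusted p = 0.670), and TOMM70 was at -0.18 (adjusted p = 0.0550).

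Of 21 tested genes of other mitochondrial membrane transport, 3 rose and 5 fell. This is 38.1% called, near the 41.1% over all genes tested. SFXN5, one of the sideroflexins, had 15.5 ± 1.02 CPM in the sgGPR91 libraries and 8.48 ± 1.16 CPM in the sgcon libraries, with a log2 fold change of 0.87 ± 0.16 (edgeR adjusted p = 0.000352). ABCB8, an ABC transporter of the inner membrane, had a log2 fold change of 0.44 ± 0.13 (adjusted p = 0.0160), and 0.0583 without sgcon replicate 1, 0.0733 without sgcon replicate 2, 0.0556 without sgGPR91 replicate 1 and 0.0581 without sgGPR91 replicate 2. Among the falls, MCUB, the inhibitory subunit of the calcium uniporter, had a log2 fold change of -0.45 ± 0.13 (adjusted p = 0.0133), and 0.0641 without sgcon replicate 2 and 0.0796 without sgGPR91 replicate 3.

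Of the malate-aspartate shuttle enzymes, which work on substrates of the carriers, 1 of 4 (25%) rose, beside 20.2% of all genes tested: GOT1, the cytosolic aspartate aminotransferase, had 48.2 ± 3.89 CPM in the sgGPR91 libraries and 30.4 ± 1.53 CPM in the sgcon libraries (log2 fold change 0.67 ± 0.10, edgeR adjusted p = 3.88e-05). Of the citrate enzymes, 1 of 4 (25%) rose as well: ACLY, which splits exported citrate, had 506 ± 16.0 CPM in the sgGPR91 libraries and 408 ± 21.6 CPM in the sgcon libraries (log2 fold change 0.31 ± 0.07, adjusted p = 0.00215). None of the 4 tested carnitine shuttle enzymes passed with edgeR, DESeq2 or limma on log2(FPKM + 1), while edgeR called 41.1% of all genes tested. Of the 4, 1, CPT1A, had an unadjusted edgeR p under 0.05 (adjusted p = 0.0920).

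Of the 5 mitochondrial folate enzymes, 2 rose and 1 fell (60% called, beside 41.1% of all genes tested). ALDH1L2 had 149 ± 6.13 CPM in the sgGPR91 libraries and 102 ± 4.62 CPM in the sgcon libraries (log2 fold change 0.55 ± 0.07, edgeR adjusted p = 1.10e-05), and MTHFD1L had a log2 fold change of 0.37 ± 0.10 (adjusted p = 0.00917). SHMT2, which makes glycine in mitochondria, had 156 ± 1.73 CPM in the sgGPR91 libraries and 202 ± 24.2 CPM in the sgcon libraries (log2 fold change -0.37 ± 0.08, adjusted p = 0.00172). Of 10 haem and iron-sulphur genes, 2 fell, beside 21% of all genes tested that were lower. FECH, the last enzyme of haem synthesis, had a log2 fold change of -0.38 ± 0.10 (adjusted p = 0.00771, and 0.0522 without sgGPR91 replicate 1). UROD, an earlier enzyme of that pathway, had a log2 fold change of -0.27 ± 0.09 (adjusted p = 0.0225), and 0.119 without sgcon replicate 2, 0.0670 without sgGPR91 replicate 1 and 0.0873 without sgGPR91 replicate 2.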

How the data were processed

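The deposited table holds read counts per gene, whole numbers that were not normalized, per the file headers, and FPKM values computed by the authors. Each FPKM value equalled its count divided by listed length and scaled to the column total to within a relative difference of 1.7e-14 over 90322 values. HISAT2, Bowtie2 and RSEM are named in the submitters' processing notes, without versions. No source used here names the genome build, and coordinates are those of the table. All 47 carrier IDs are in GENCODE 29, 27 with the same start.

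Counts of the 6 libraries were tested in R 4.3.3 with edgeR 4.0.16 (filterByExpr with a minimum count of 10 and total of 15, TMM, quasi-likelihood test, sgGPR91 over sgcon, no covariate). The Benjamini-Hochberg adjustment ran over the 12701 genes tested, and a gene was called at an adjusted p under 0.05. Rows without a gene symbol of their own (595) entered under their IDs. CPM is TMM-scaled. The biological coefficient of variation was 7.56%. Shares within paralog groups used FPKM and a two-sided exact permutation test. Alternatives were other scaling, no filter, DESeq2 1.42.0, limma 3.58.1 on log2(FPKM + 1 or 0.1), a replicate block and leaving out each library. A protein comparison was not made.

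Named with values were every called carrier, the 5 with the highest mean FPKM, paralog group members, carriers under the filter and, of each other list, the 2 largest called rises and falls; values of 1 tested carrier and of some genes of the other lists are not reported here. TIMM10, TOMM70, UCP2, UCP3, CPT1A and the other carriers that were not called were added after their values were seen. The carriers and lists were chosen with earlier results of these data known.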

Additional observations from a re-analysis of the deposited data

How the results depend on the processing

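SLC25A22, SLC25A24, SLC25A42, SLC25A44 and SLC25A46 kept their calls in all 14 alternatives, with edgeR, DESeq2 or limma adjusted p of at most 0.00838, 0.0207, 0.0147, 0.0452 and 0.00543. Over the named carriers and partner genes no called value changed direction. Counting each gene under each alternative, the called carriers and partner genes lost a call 70 times, and tested carriers that had not been called gained one 13 times. The carriers called lower numbered 3 with limma on log2(FPKM + 1) without a filter, and 2 to 8 when 1 library was left out, against 6; the carriers called higher numbered 4 to 7, against 5. The causes were not tested. With limma on log2(FPKM + 1) without a filter, SLC25A4 (adjusted p = 0.0543), SLC25A6 (0.211), SLC25A16 (0.120), SLC25A36 (0.102), SLC25A39 (0.0651) and SLC25A51 (0.174) were not called. SLC25A47, which is under the count filter, was called lower without that filter by edgeR (adjusted p = 0.0272) and by limma on log2(FPKM + 1) (0.0262). All genes called numbered 5221, and 4108 to 5707 when 1 library was left out.

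Deviations from the group means correlated at 0.153, 0.0176 and 0.0890 between libraries that share a replicate number, all above 0. The main test did not pair the libraries by number, and these values do not settle whether the numbers mark pairs. With a replicate block 13 carriers and 5670 genes were called, with SLC25A30 (adjusted p = 0.0441) and SLC25A35 (0.0380) added. Only sgGPR91 replicate 2 correlated better with a library of another number, at 0.0574 with sgcon replicate 3.

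SLC25A34, SLC25A35, SLC25A41, SLC25A27 and SLC25A53 had the fewest reads of the tested carriers and the widest 95% intervals, so small differences in them were not detectable at this depth.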
